A study of Homo sapiens with 18 samples.

Results

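The genes described here encode the proteins of the cytosolic ribosome. Members were the rows whose symbol is RPL or RPS followed by a number and, where present, the letter A, X or L, together with RPLP0, RPLP1, RPLP2 and RPSA, and they were selected on a minimum of 10 counts in each of the 18 libraries. Of 36684 listed symbols 81 matched the pattern, and 79 of these also met the minimum, 32 of the small and 47 of the large subunit. RPS10 was the member nearest to the minimum, with 51 to 122 counts per library. The 2 matching symbols left out were RPL3L, a paralog of RPL3 best known from muscle, with 1 to 7 counts, and RPL10L, a paralog of RPL10 best known from testis, with 0 counts in all libraries. Among the rows matching the pattern, the minimum was the only measured value that chose the members, and no comparison between groups entered the minimum. The family itself was chosen with earlier results of these data known.

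The libraries were made from polyadenylated RNA of Hep3B, a human hepatoma cell line, to profile a cell model of steatosis and its treatment with fucoxanthin (FUCO), a carotenoid of brown algae. The 6 groups of 3 libraries were untreated cells (Con), cells loaded with free fatty acids (FFA; Model), FFA with FUCO at 0.5, 1 or 2 μM (FUCO-0.5, FUCO-1 and FUCO-2), and FFA with Resmetirom (RES), a thyroid hormone receptor β agonist. All groups are 1 cell line, so neither donors nor the other cells of the liver are represented. The FFA concentration, the treatment times and the RES dose of these libraries are not given in the sources used here.

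Each cytosolic ribosome is built from one copy of nearly every protein of this family, wrapped around ribosomal RNA, and growing cells devote a large part of their mRNA to it. Most of these mRNAs start with a C followed by a run of pyrimidines, the 5′ terminal oligopyrimidine (TOP) motif, through which mTORC1 and the RNA-binding protein LARP1 control how much of the mRNA is translated and how stable it is. RNA-seq measures the mRNA only, not its translation or the number of ribosomes.

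The start of the transcript is shown for 7 members on which the results turn, since the pyrimidine run is the feature that most of the family shares. RPS27L, which moved against most members, has no such run, and RPL36A, which did so too, has one. The sequences are RefSeq's, on GRCh38.p14, from 30 bases before the annotated start to 25 bases of transcript. Capitals mark a run of a C and at least 4 further C or T that begins within 5 bases of the start.
RPLP0, chr12:120201087-120201141, minus strand: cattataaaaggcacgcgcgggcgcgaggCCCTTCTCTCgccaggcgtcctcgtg
RPL12, chr9:127451382-127451436, minus strand: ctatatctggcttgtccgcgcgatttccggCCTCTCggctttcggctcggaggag
RPL3, chr22:39319599-39319653, minus strand: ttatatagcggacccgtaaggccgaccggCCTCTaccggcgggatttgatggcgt
RPL26, chr17:8383169-8383223, minus strand: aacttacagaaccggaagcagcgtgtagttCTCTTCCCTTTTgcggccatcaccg
RPL36A, chrX:101390981-101391035, plus strand: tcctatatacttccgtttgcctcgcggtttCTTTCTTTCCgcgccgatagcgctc
RPS27, chr1:153990732-153990786, plus strand: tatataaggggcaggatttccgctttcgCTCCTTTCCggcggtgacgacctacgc
RPS27L, chr15:63157453-63157507, minus strand: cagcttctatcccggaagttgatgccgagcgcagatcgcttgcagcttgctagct

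The run was 12 bases long in RPL26, 10 in RPLP0 and RPL36A, 9 in RPS27, 6 in RPL12 and 5 in RPL3. Of the 79 members 63 had a promoter window in the table used, and 53 of those 63 (84.1%) held such a run, against 6886 of 27305 genes with a window (25.2%). Besides RPS27L, the members with a window but no run were RPL6, RPL9, RPL15, RPL17, RPL27, RPS4X, RPS15, RPS26 and RPS29, so the lack of a run did not single out RPS27L. A run that began exactly at the annotated start was found in 46 members (73.0%), against 1404 genes in all (5.14%), and in 6 of 68 mitochondrial ribosomal protein genes (8.82%). Other letters were searched on both strands of the window from 250 bases before to 50 after the start. The letters CCGGAAG, which contain the core recognised by ETS factors, were in 36.5% of members and 12.2% of all windows. GGGCGG, the GC box, was in 58.7% and 48.3%, AAGATGGC, the core of the YY1 motif, in 9.52% and 3.52%, and TATAAA in 7.94% and 13.99%. Motifs can overlap one another, and a match describes the letters in the window and nothing more.

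The unit of level is CPM, a count divided by the TMM-adjusted library total and put on one scale for all libraries, whose totals ran from 16916688 to 23083498 counts. All 79 members were among the 14557 genes with enough counts to be tested, and they took 3.16% to 4.52% of a library's counts. Per kilobase of a canonical transcript, RPLP0, the protein at the base of the ribosomal stalk, had the highest mean level over all libraries (1418 CPM per kb), followed by the small subunit protein RPS12 (1414 CPM per kb). The canonical length was 1105 nt for RPLP0 and 503 nt for RPS12, but 4209 nt for RPL28 and 6110 nt for RPS27L. Whether these transcripts were the ones present was not tested, so the order holds for these lengths only. RPS10 and RPL36A had the lowest, 6.82 and 8.69 CPM per kb. Both overlap a read-through gene in RefSeq (RPS10-NUDT3 and RPL36A-HNRNPH2), as does RPL17 (RPL17-C18orf32), and these 3 had the fewest counts of any member. The read-through rows themselves held 0 counts in every library, and how reads in several genes were treated is not given in the sources used here, so the 3 values are uncertain. In total 24 members overlap another RefSeq gene, leaving out genes of small nucleolar RNAs and microRNAs. Pseudogene rows named after members held 1.06% to 1.29% of the members' counts in each library, but 158% of those of RPL17, 110% of those of RPS10, 59.8% of those of RPL36A and 38.6% of those of RPS2.

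The hepatocyte markers were present throughout, ALB with at least 137652 counts in every library. Of the markers of other cells, CDH5 was at 0 in every library, and PTPRC, CD3E, CD68, DCN and KRT7 never exceeded 7 counts. PECAM1 (3 to 36 counts), COL1A1 (12 to 56), LUM (51 to 306), SOX9 (1546 to 3408) and EPCAM (8194 to 13489) were detected in all libraries. In bulk RNA, fewer cells of a type and less RNA per cell cannot be told apart.

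Summed over the 79 members, ribosomal protein mRNA was lowest with 0.5 μM FUCO and highest with 2 μM. In CPM, the sums were 41160, 40868 and 39236 in Con, 35845, 35934 and 37401 in Model, 35635, 32071 and 34822 in FUCO-0.5, 38808, 41788 and 40153 in FUCO-1, 39850, 44818 and 41922 in FUCO-2, and 36807, 37919 and 40888 in RES. The means were 34176 ± 1868 in FUCO-0.5, 36394 ± 874 in Model, 38538 ± 2109 in RES, 40250 ± 1492 in FUCO-1, 40421 ± 1037 in Con and 42197 ± 2495 in FUCO-2 (SD, n = 3). The libraries of FUCO-0.5 lay below those of Model, and those of Con, FUCO-1 and FUCO-2 all lay above them. RES overlapped Model, Con, FUCO-1 and FUCO-2, and FUCO-1, Con and FUCO-2 overlapped one another. FUCO-0.5 replicate 2 was the lowest library and FUCO-2 replicate 2 the highest.

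**Figure D1:**
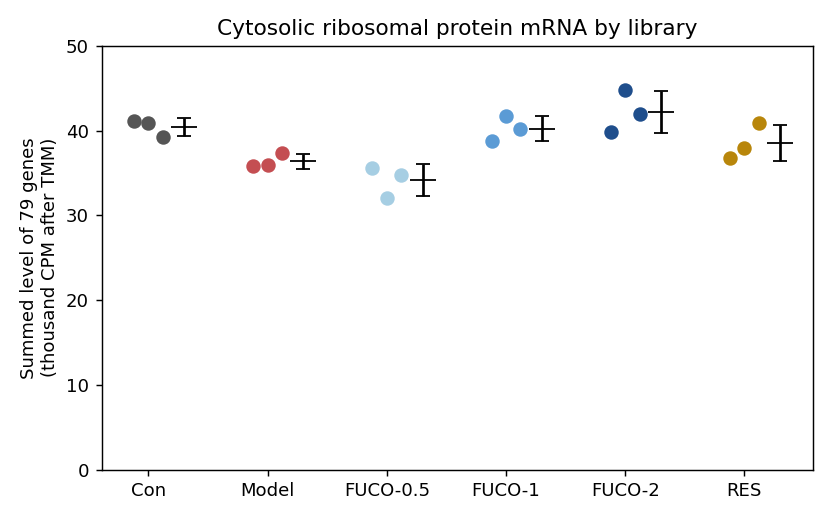
Summed level of the 79 ribosomal protein genes in units of 1000 CPM after TMM scaling, with one point per library and the mean ± SD of 3 libraries beside each group. The 3 FUCO-0.5 libraries sit lowest and every Con, FUCO-1 and FUCO-2 library lies above the 3 Model libraries.

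As shares of all counts, which need no scaling factor, the members held 3.80% ± 0.0961 in Con, 3.56% ± 0.0642 in Model, 3.42% ± 0.234 in FUCO-0.5, 4.002% ± 0.132 in FUCO-1, 4.28% ± 0.242 in FUCO-2 and 4.14% ± 0.237 in RES (SD, n = 3). RES ranked below FUCO-1 and Con in CPM but above both as a share of counts, so its place depended on the scaling. Library totals alone shifted the median of all tested genes by 0.14 (log2) between RES and Model and by 0.19 between RES and Con, and by less than 0.1 in the other comparisons.

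Most members followed the same pattern over the groups. For 47 members the highest of the 6 group means was in FUCO-2, and for 59 the lowest was in FUCO-0.5. Across the 6 group means, which share all libraries and 1 set of scaling factors, the log2 level of a member correlated with the mean of the other members with a median r of 0.900, and 74 of 79 had an r over 0.5. The 3 members least like the rest were RPS27L (r = −0.65), RPL36A (−0.094) and RPL17 (0.32).

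**Figure D2:**
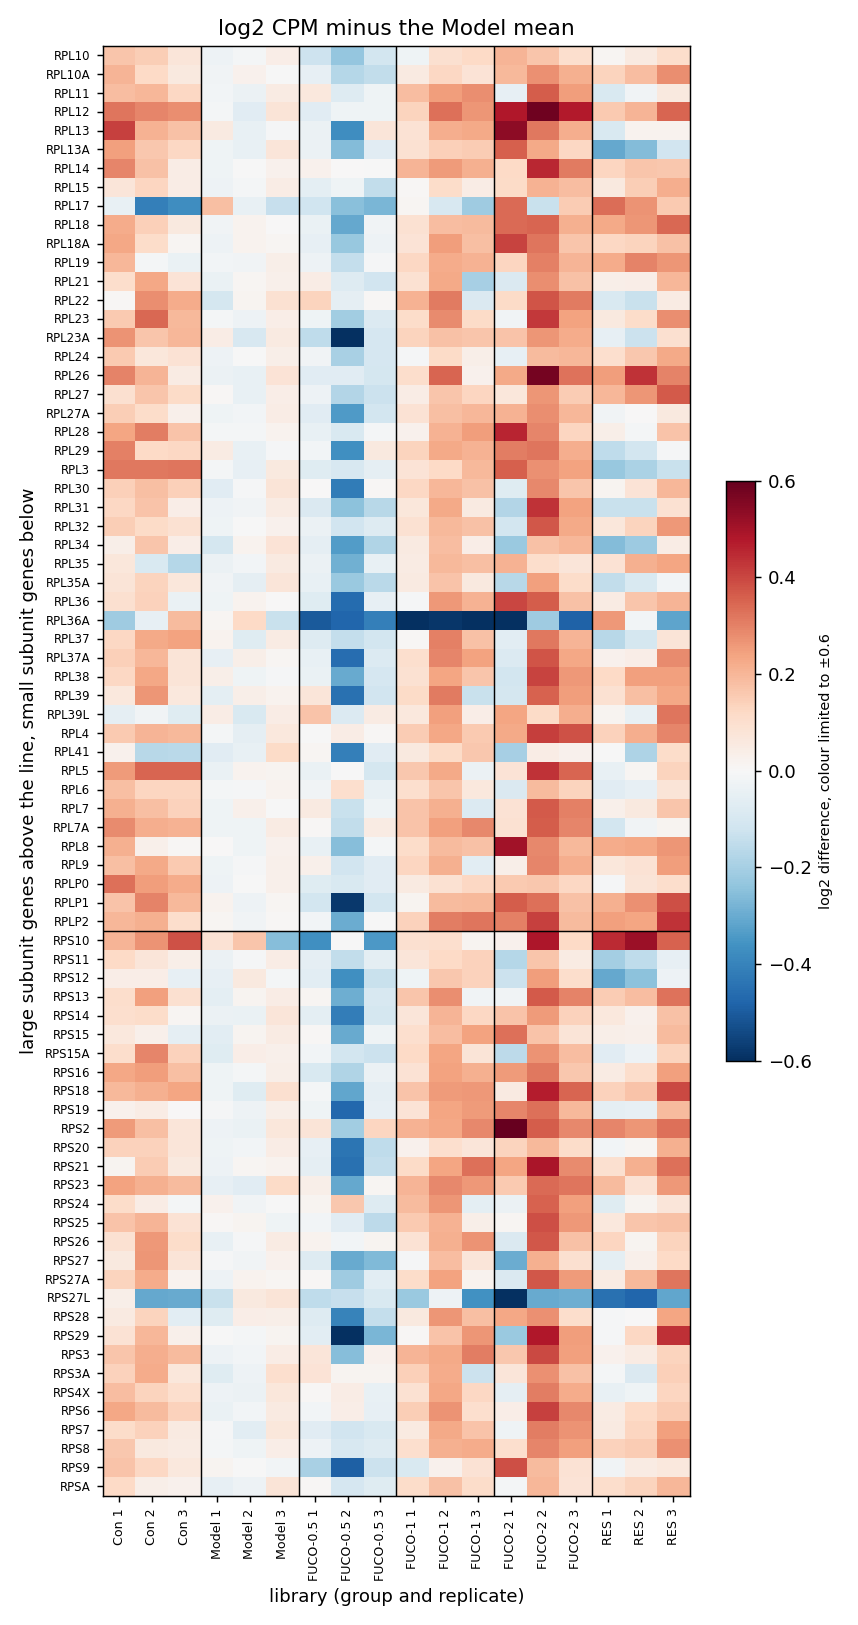
Level of the members reported singly in each library as log2 CPM minus the mean of the Model libraries, from blue (lower) to red (higher), with colours limited to ±0.6. The FUCO-2 columns are mostly red and FUCO-0.5 replicate 2 mostly blue, while RPS27L and RPL36A run the other way at 2 μM.

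Between Model and Con, the comparison that shows what FFA loading does, 8 members were lower in Model and none was higher by edgeR's quasi-likelihood test (Benjamini-Hochberg adjusted p under 0.05 over all 14557 genes). The background was near this count, since 9.12% of all tested genes were called lower and 8.43% higher. The group mean in Model was below that in Con for 73 of 79 members, and the median log2 fold change was −0.14, a median difference of −9.35%, against 0.0011 over all tested genes. Small and large subunit genes had medians of −0.13 and −0.14, with 2 of 32 and 6 of 47 called. No member reached an absolute log2 fold change of 1, the study's threshold for a differentially expressed gene, in this or any other comparison. The p-values measure the spread between these libraries, which the study's methods describe as biological replicates.

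RPL3, which lines the peptidyl transferase centre, stood at 1341, 1340 and 1344 CPM in Con and at 1068, 1041 and 1123 CPM in Model. Its groups did not overlap, and the log2 fold change was −0.32 (SE 0.063, edgeR adjusted p = 0.000916). RPL5, which carries 5S RNA into the large subunit and binds MDM2 when ribosome assembly fails, fell from 593, 633 and 632 CPM to 483, 504 and 503 CPM. This was a log2 fold change of −0.32 (SE 0.083, edgeR adjusted p = 0.00859), again without overlap.

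For RPL12, a protein at the base of the stalk where elongation factors bind, the libraries held 400, 393 and 389 CPM in Con and 318, 306 and 338 CPM in Model. All 3 Model libraries were below all Con libraries (log2 fold change −0.30, SE 0.069, edgeR adjusted p = 0.00377). Among the other 5 members called lower were RPLP0, RPL28, RPL7A and RPS16, and the log2 fold changes of the 5 ran from −0.27 to −0.22. The call on RPLP0 was kept when any 1 library was left out, whereas that on RPL28 was lost without Con replicate 1 or 2 or any 1 Model replicate (adjusted p of up to 0.149 by edgeR), that on RPL7A without Model replicate 1 or 2 or any 1 Con replicate (up to 0.092), and that on RPS16 without Con replicate 2 or 3 or any 1 Model replicate (up to 0.0975). The number of members called was 4 without Model replicate 1 or without Model replicate 2, 5 without Con replicate 2 and 13 without FUCO-0.5 replicate 2, all of them tested in a fit that pooled the spread of the 6 groups. With the 2 groups fitted alone it was 23, and the share over all genes in that fit is not given here.

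The other genes of the translation apparatus were counted in lists of known function. Translation factors and other genes with TOP mRNAs outside the ribosome were lower in Model for 5 of 19 tested and higher for none (median −0.19). They included PABPC1, the poly(A)-binding protein (log2 fold change −0.37), and EIF4B (−0.33). RACK1, a scaffold protein of the small subunit that the naming pattern misses, fell by 0.30 on the log2 scale. Of 9 tested host genes of small nucleolar RNAs, 3 were lower (GAS5, SNHG8 and SNHG29) and none was higher, and of 18 cytosolic tRNA synthetases 7 were lower and none higher. The mitochondrial ribosome gave 5 higher and 3 lower of 76, with a median of 0.031. None of 73 respiratory chain genes was called by edgeR, while 10 had an unadjusted p under 0.05. Among 20 genes that control mTORC1 or initiation, RPS6KB1, the S6 kinase, was higher, and DDIT4, SESN2 and DEPTOR, which hold mTORC1 down, were lower. Of the 10 hepatocyte markers 5 were also lower and none higher, and their summed level went from 64216 to 72118 CPM in Con to 53357 to 53745 CPM in Model. Of the 5 tested markers of other cells, PECAM1 was higher and LUM lower. The part of these markers in the result was not tested.

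With 0.5 μM FUCO against Model, edgeR called 0 of 79 members (DESeq2 also 0), and 12 had an unadjusted p under 0.05, all lower. Of the 14557 tested genes, 875 were lower and 766 higher at an unadjusted edgeR p under 0.05. Calls were rare in this comparison, at 0.289% of tested genes higher and 1.16% lower. The group mean was below that of Model for 68 of 79 members, and the median log2 fold change was −0.10, a difference of −6.66%. Without FUCO-0.5 replicate 2, the library with the lowest sum, the median was −0.051. Among 78 short and abundant genes outside the family (canonical transcript under 1000 nt, mean level 100 CPM or more), 64 were also below Model, with a median of −0.085, and 4 were called lower and none higher. The largest difference was that of RPL36A, a large subunit protein near the E site, at 7.84, 8.45 and 7.09 CPM in Model and 5.49, 5.595 and 5.86 CPM in FUCO-0.5 (log2 fold change −0.46, SE 0.15, edgeR adjusted p = 0.175). Its libraries did not overlap, but the test did not pass.

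With 1 μM FUCO against Model, the members stood slightly higher, with 76 of 79 group means above Model and a median log2 fold change of 0.15, or 11.04%. The 78 other short and abundant genes had a median of 0.041. Single genes did not pass the test in that direction. The edgeR test called 0 members higher and 1 lower, against 0.893% and 2.32% of all tested genes. At an unadjusted edgeR p under 0.05, 25 members were higher and 1 lower, against 1041 and 1334 of 14557 tested genes. DESeq2 called 6 members higher and 1 lower, and its share over all genes is not given here. RPL12 came close, at 351, 403 and 385 CPM (log2 fold change 0.24, SE 0.069, edgeR adjusted p = 0.0522), and its libraries lay above all 3 of Model. It passed without FUCO-1 replicate 1 (0.30, edgeR adjusted p = 0.0295) and without Con replicate 1, FUCO-2 replicate 1 or RES replicate 3.

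RPL36A was the member called lower, at 5.002, 5.19 and 5.14 CPM in FUCO-1, below every Model library (log2 fold change −0.61, SE 0.16, edgeR adjusted p = 0.0265). These CPM rest on 90 to 101 counts a library. The call was lost when the counts of its pseudogenes were added (log2 fold change −0.39) and in 5 fits that left out 1 library each, with adjusted p of up to 0.14. Those libraries were Model replicates 1 and 2 and each of the 3 FUCO-1 replicates, and the fold changes without them ran from −0.62 to −0.55. The number of members called was 0 without Model replicate 1, Model replicate 2, FUCO-1 replicate 2 or FUCO-1 replicate 3, 2 without Con replicate 1 or RES replicate 3, 3 without FUCO-0.5 replicate 2 and 6 without FUCO-2 replicate 1.

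With 2 μM FUCO against Model, 34 of 79 members were higher and 2 were lower by edgeR's quasi-likelihood test. Of all tested genes 10.8% were called higher and 9.71% lower. The group mean exceeded that of Model for 76 members. The median log2 fold change was 0.20, a level higher by 15.2%, and the middle members, from the lower to the upper quartile, lay between 0.16 and 0.28, while over all tested genes the median was 0.0096. Both subunits took part, with 12 of 32 small subunit genes higher (median 0.20) and 22 of 47 large subunit genes (median 0.21). DESeq2 called 37 higher and 2 lower, and its share over all genes is not given here. The count of 36 members called fell to 13 without FUCO-2 replicate 2, the library with the highest sum, to 16 without Model replicate 1 and to 20 without Model replicate 2, and the median of the members was 0.15 without FUCO-2 replicate 2.

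**Figure D3:**
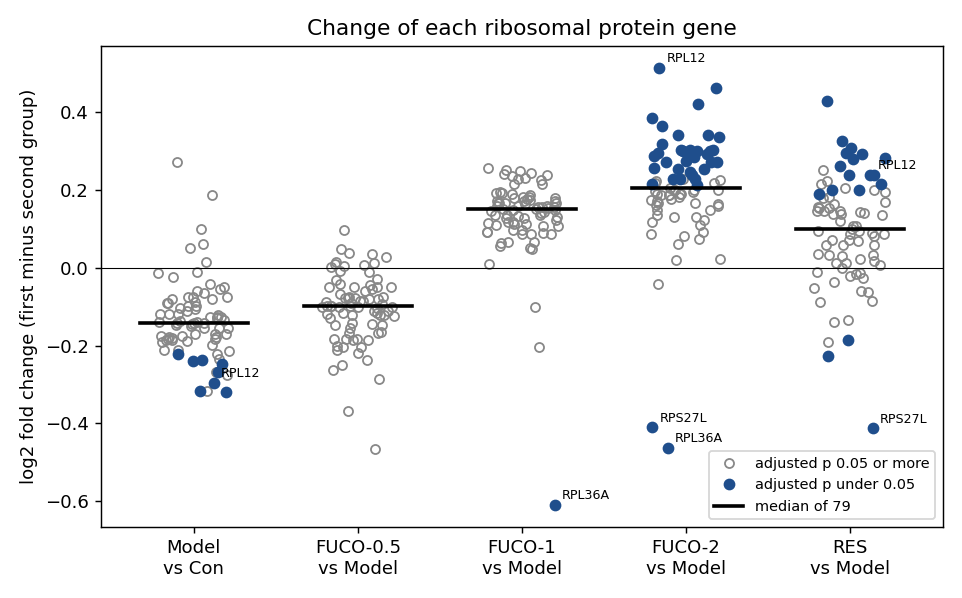
Log2 fold change of each of the 79 members in 5 comparisons, with filled points for an adjusted p under 0.05 in edgeR's quasi-likelihood test and a bar at the median. The medians are −0.14, −0.10, 0.15, 0.20 and 0.10 from left to right, and RPS27L and RPL36A lie below the other members at 2 μM FUCO.

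RPL12 rose the most, to 447, 480.5 and 446 CPM in FUCO-2, above every library of each of the other groups. Against Model its log2 fold change was 0.51 (SE 0.069, edgeR adjusted p = 1.21e-05), a level higher by 42.7%. RPS2, which lines the channel where mRNA enters the small subunit, went from 279, 278 and 299 CPM to 431, 367 and 348 CPM. This gave a log2 fold change of 0.42 (SE 0.084, edgeR adjusted p = 0.000972), without overlap.

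Of the stalk proteins, RPLP2 held 358, 349 and 357 CPM in Model and 437, 471 and 405 CPM in FUCO-2 (log2 fold change 0.30, SE 0.082, edgeR adjusted p = 0.01). RPLP1 was at 514, 495 and 511 CPM and at 652, 636 and 572 CPM (0.29, SE 0.094, edgeR adjusted p = 0.029). Neither overlapped between the groups. The call on RPLP2 was lost without FUCO-2 replicate 2 (0.25, edgeR adjusted p = 0.0644), and that on RPLP1 without FUCO-2 replicate 1 or 2 or any 1 Model replicate (0.25 to 0.30, adjusted p of up to 0.0916 by edgeR). RPLP0, which anchors RPLP1 and RPLP2, differed less, at 1448, 1472 and 1509 CPM in Model and 1645, 1653 and 1608 CPM in FUCO-2 (0.15, SE 0.062, edgeR adjusted p = 0.0972), and did not pass although its groups were apart. RPSA, the small subunit protein also described as a laminin receptor, was at 640, 649 and 700 CPM and at 658, 760 and 700 CPM (0.091, SE 0.068, edgeR adjusted p = 0.369), with overlap, and its value was 0.14 without FUCO-2 replicate 1 and 0.035 without FUCO-2 replicate 2.

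Among the other members that rose were RPL3 (log2 fold change 0.29) and RPL5 (0.30), which had been lower in Model than in Con, RPL26 (0.38), RPL13 (0.36), RPS21 (0.34), RPL4 (0.34), RPL8 (0.33), RPS19 (0.27), the gene most often mutated in Diamond-Blackfan anaemia, and RPS6 (0.25), the substrate of the S6 kinases. The smallest rise that passed was that of RPL19 (0.21). Without FUCO-2 replicate 2 the edgeR calls on RPL5 (0.22), RPL26 (0.28), RPS21 (0.26), RPS19 (0.25), RPS6 (0.17) and RPL19 (0.17) were lost, and that on RPL13 (0.27) without FUCO-2 replicate 1. Those on RPL5, RPS19, RPS6 and RPL19 were also lost without Model replicate 1, the last 3 of them without Model replicate 2, RPS19 and RPL19 without Model replicate 3, RPS19 without FUCO-2 replicate 1, and RPS6 and RPL19 without FUCO-2 replicate 3. The calls on RPL3, RPL4 and RPL8 were kept when any 1 library was left out. Both comparisons use the same Model libraries, so a fall against Con and a rise with FUCO are not independent of each other.

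RPS27L and RPL36A were lower. RPS27L, a paralog of RPS27 that p53 induces, held 67.6, 77.3 and 78.2 CPM in Model and 47.2, 60.1 and 60.6 CPM in FUCO-2. All FUCO-2 libraries were below all Model libraries (log2 fold change −0.41, SE 0.10, edgeR adjusted p = 0.00609). RPS27 was at 489, 484 and 499 CPM and at 400, 568 and 524 CPM, with overlap (0.019, SE 0.097, edgeR adjusted p = 0.917), and its log2 fold change ran from −0.088 without FUCO-2 replicate 2 to 0.15 without FUCO-2 replicate 1. RPL36A was at 4.67, 6.71 and 5.55 CPM in FUCO-2, below Model (−0.46, SE 0.15, edgeR adjusted p = 0.0353), and that call was lost in 7 of 29 alternatives, with an adjusted p of up to 0.207. With pseudogene counts added its log2 fold change was −0.23, and without FUCO-2 replicate 1 it was −0.34. The 3 further fits that lost the call by leaving out 1 library were those without Model replicate 1 or 2 and without FUCO-2 replicate 3.

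The other pair of paralogs moved less. RPL39, a small protein in the exit tunnel, was at 169, 181 and 179 CPM in Model and 164, 225 and 210 CPM in FUCO-2, and RPL39L, its paralog best known from male germ cells, at 32.5, 29.6 and 32.4 CPM and at 37.1, 34.1 and 36.7 CPM. RPL39 overlapped between the groups and RPL39L did not. The log2 fold change of RPL39 was 0.30 without FUCO-2 replicate 1 and 0.084 without FUCO-2 replicate 2. Neither passed (log2 fold changes 0.18 and 0.19, edgeR adjusted p = 0.297 and 0.159).

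**Figure D4:**
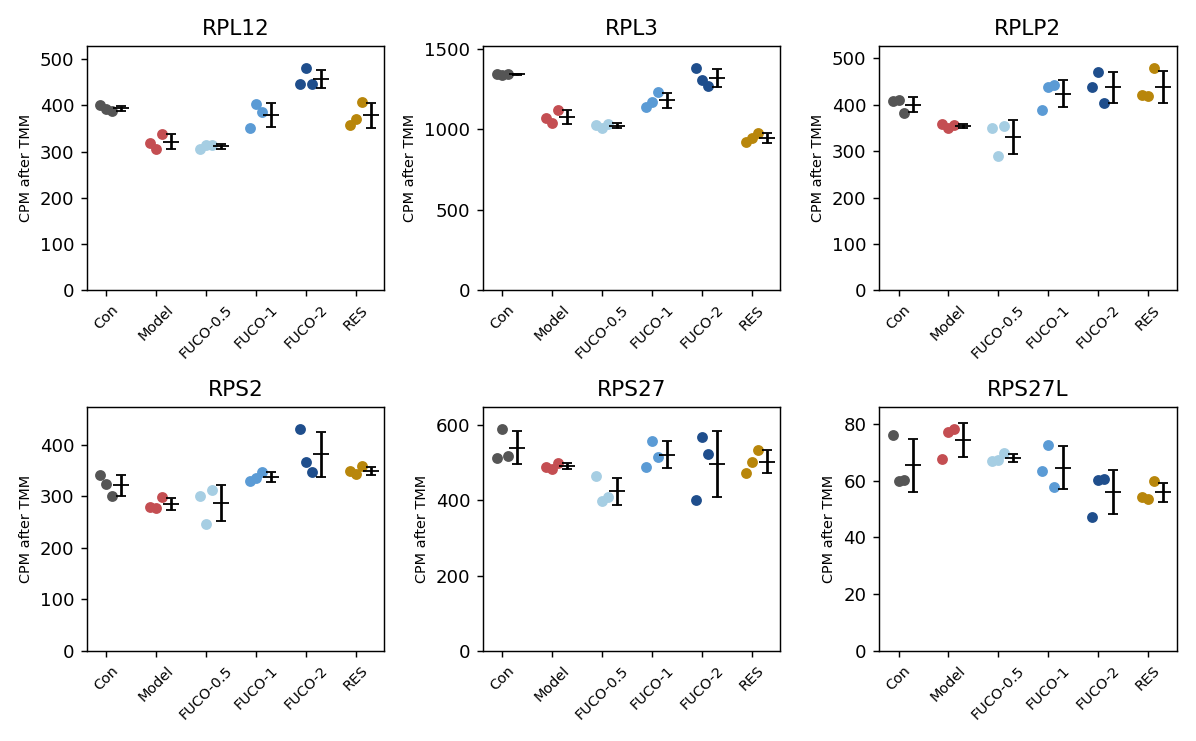
CPM after TMM scaling of 6 members in each library, by group, with the mean ± SD of 3 libraries beside the points and each axis starting at 0. RPL12, RPLP2 and RPS2 are higher in FUCO-2 than in Model, RPL3 is lowest in RES, and RPS27L is lower in FUCO-2 and RES than in Model while RPS27 overlaps.

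The genes around the ribosome were called mostly in the same direction at 2 μM. Of 19 tested translation genes with TOP mRNAs 9 were higher and none lower (median 0.22), among them PABPC1 (log2 fold change 0.49), EIF3E (0.46) and EEF2 (0.37), the translocase. Of the small nucleolar RNA host genes 5 of 9 were higher and none lower (median 0.37), including GAS5 (0.55) and SNHG29 (0.40). Of the tRNA synthetases 12 of 18 were higher and none lower (median 0.33), with LARS1 at 0.60 and YARS1 at 0.54. Ribosomal protein genes outside the naming pattern gave 2 higher and 1 lower of 7, namely RACK1 (0.30), RPL7L1 (0.22) and RPL36AL (−0.31).

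The mitochondrial ribosome, whose proteins are encoded by separate nuclear genes, gave 13 higher and 1 lower of 76 with a median of 0.067. No respiratory chain gene was higher and 7 of 73 were lower (median −0.083). Among the 20 control genes, DDIT4 was higher (0.94) and SESN3 lower (−0.38). Of the 2119 other tested genes with a mean of at least 100 CPM, 241 were higher and 400 lower, with a median of −0.024. Among the 78 of these whose canonical transcript is under 1000 nt, 6 were higher and 20 lower, with a median of −0.088. The lists share the Model libraries with the members, and no test compared one list with another.

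**Figure D5:**
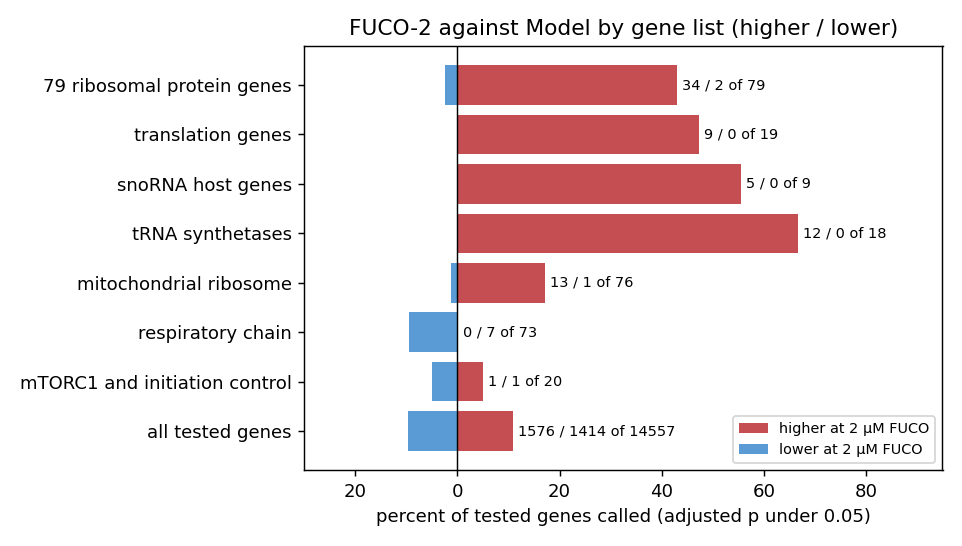
Percent of tested genes called higher (right) and lower (left) with 2 μM FUCO against Model for each list, with the counts written beside the bars. The ribosomal protein genes show 34 higher and 2 lower of 79, and all tested genes 1576 higher and 1414 lower of 14557.

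The hepatocyte markers moved the other way at 2 μM. Of 10 tested 9 were lower and none higher, with a median log2 fold change of −0.52, and their sum went from 53357 to 53745 CPM in Model to 35981 to 40543 CPM in FUCO-2. ALB alone went from a mean of 33912 to 23780 CPM. Their part in the change of the ribosomal protein genes was not tested. Of the other cells' markers with enough counts, SOX9 was higher and none was lower.

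Set against each other, the FUCO doses differed mostly between 0.5 and 2 μM. FUCO-2 against FUCO-1 called 1 member higher and none lower, against 4.07% and 2.23% of all tested genes, with a median log2 fold change of 0.070. That member was RPL12 (log2 fold change 0.27, SE 0.069, edgeR adjusted p = 0.0186), higher in 3 of 3 FUCO-2 libraries. FUCO-2 replicate 2 decided this median, which was −0.00043 without it. The count was 0 without FUCO-2 replicate 2 or FUCO-1 replicate 1 and 2 without FUCO-2 replicate 1.

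Comparisons with FUCO-0.5 were added after the data had been seen. FUCO-2 against FUCO-0.5 called 56 of 79 members higher and none lower (median 0.32, or 24.5%), against 8.43% and 6.68% of tested genes, and 32 without FUCO-2 replicate 2. The largest rise was that of RPS29, a small subunit protein (0.57), and its call was lost without FUCO-0.5 replicate 2 (0.36) or FUCO-2 replicate 2 (0.40). Of the hepatocyte markers 8 of 10 were lower in FUCO-2 than in FUCO-0.5 and none higher (median −0.46), and 6 were lower and none higher than in FUCO-1 (median −0.34). Their part in these results was not tested. FUCO-1 against FUCO-0.5 had a median of 0.25 and 64 members higher at an unadjusted p under 0.05, but edgeR called 0, where 0% of tested genes were called higher and 0.00687% lower. At an unadjusted edgeR p under 0.05, 699 of 14557 tested genes were higher and 858 lower. The 78 other short and abundant genes moved the same way by less, with 60 above FUCO-0.5, a median of 0.11, 18 higher and none lower at an unadjusted p under 0.05, and 0 called by edgeR. DESeq2 called 21 members higher in the same comparison, and edgeR 1 without Con replicate 1 or FUCO-0.5 replicate 3. The shares over all genes in those fits are not given here. The group means rose in the order of dose, FUCO-0.5 below FUCO-1 below FUCO-2, for 62 of 79 members, which share libraries and scaling factors. The share of all tested genes in that order was not computed. From 0.5 to 1 μM 77 members rose, against 7061 of 14557 tested genes, and from 1 to 2 μM 63, against 7714. The step from 1 to 2 μM rested on FUCO-2 replicate 2, without which its median log2 fold change was −0.00043. At 0.5 μM the group means stood below Model for most members, as given above.

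With RES against Model, 15 members were higher and 3 lower, shares below those of all tested genes, of which 24.4% were higher and 25.1% lower. The median log2 fold change was 0.10, a level higher by 7.16%, and 61 of 79 group means were above Model. Without RES replicate 3, the RES library with the highest sum, the median was 0.061. Scaled by library totals alone, 50 members were higher and 1 lower, and the median was 0.23. The 5 small subunit genes called higher included RPS10, which sits at the head of the subunit. RPS10 held 3.84, 4.06 and 3.03 CPM in Model and 4.93, 5.17 and 4.62 CPM in RES, without overlap (log2 fold change 0.43, SE 0.16, edgeR adjusted p = 0.0246). Its counts of 51 to 122 a library are the lowest of the family, and the call was lost in 5 of 29 alternatives, 3 of which left out Model replicate 3 (log2 fold change 0.31), RES replicate 1 (0.42) or RES replicate 2 (0.39).

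RPL26, known also for binding the p53 mRNA, was at 22.4, 22.2 and 24.3 CPM in Model and 27.3, 31.0 and 28.2 CPM in RES. RPLP2 was at 420, 418 and 479 CPM in RES, above its 3 Model libraries given earlier. Both passed, with log2 fold changes of 0.33 (SE 0.099, edgeR adjusted p = 0.00864) and 0.31 (SE 0.082, edgeR adjusted p = 0.003), and neither overlapped. RPLP1 rose likewise, to 587, 614 and 662 CPM (0.29, SE 0.094, edgeR adjusted p = 0.0118), whereas RPLP0 (0.059) and RPSA (0.15) did not pass. The call on RPLP1 was lost without RES replicate 3 (0.24, edgeR adjusted p = 0.0608), and the value of RPLP0 was 0.092 without RES replicate 1 and 0.036 without RES replicate 3.

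RPS27L, RPL13A and RPL3 were lower with RES. RPS27L held 54.4, 53.4 and 59.7 CPM, below every Model library (log2 fold change −0.41, SE 0.10, edgeR adjusted p = 0.00168), with the log2 fold change at 2 μM FUCO also at −0.41. RPL13A, which also serves in the GAIT complex that silences mRNAs after interferon γ, went from 1244, 1230 and 1332 CPM to 1024, 1057 and 1172 CPM (−0.23, SE 0.077, edgeR adjusted p = 0.0174). RPL3 went from the Model values above to 918, 944 and 980 CPM (−0.18, SE 0.063, edgeR adjusted p = 0.0174). None of the 3 overlapped with Model. With library totals alone the log2 fold changes were −0.092 for RPL13A and −0.051 for RPL3, neither past the test, and both calls were also lost without Model replicate 3, RES replicate 1 or RES replicate 2. That on RPL3 was lost without a filter on low counts as well.

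Against FUCO-2, the values of RPL3 and RPL13A in RES lie on the other side of Model. RPL3 was at 1380, 1304 and 1272 CPM in FUCO-2, and RPL13A at 1626, 1484 and 1379 CPM, each higher than Model (log2 fold changes 0.29 and 0.24, edgeR adjusted p = 0.0018 and 0.0297). The call on RPL13A in FUCO-2 was lost without FUCO-2 replicate 1 (0.18) or 2 (0.24) and without Model replicate 1 (0.22) or 2 (0.22). The difference between RES and FUCO-2 was not tested. Of the lists, tRNA synthetases were higher for 15 of 18 with RES and lower for 1, QARS1, while translation genes with TOP mRNAs gave 2 higher and 2 lower of 19. The respiratory chain gave 21 higher and 5 lower of 73. Of the control genes 6 were higher, including DDIT4 (0.93), SESN2 (0.61) and EIF4EBP1 (0.57), the repressor of cap binding by EIF4E, and 4 lower, including MTOR (−0.26) and LARP1 (−0.17).

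Hepatocyte markers were lower with RES too. Of 10 genes 9 were lower and FGB was higher, with a median log2 fold change of −2.07, and the summed level was 15430 to 15859 CPM. The markers of fibroblasts gave 2 higher of 2 tested and those of endothelium 1 lower of 1. Their part in the result was not tested.

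Between RES and Con, 3 members were higher and 12 lower, against 28.8% and 28.5% of all tested genes, with a median of −0.042. That median was −0.082 without RES replicate 3, −0.070 without Con replicate 3, −0.025 without Con replicate 2, −0.022 without RES replicate 2 and −0.014 without RES replicate 1. RPL3 had the largest fall, a log2 fold change of −0.50 (SE 0.063, edgeR adjusted p = 2.97e-07), then RPL13A at −0.40 (SE 0.077, edgeR adjusted p = 8.93e-05). The members called higher were RPL17, RPL35 and RPL19, the first at 9.25, 7.16 and 7.36 CPM in Con and 12.03, 11.5 and 10.6 CPM in RES (0.52, SE 0.13, edgeR adjusted p = 0.00145) and subject to the uncertainty of its read-through and pseudogene reads. With pseudogene counts added the call on RPL17 was lost (0.20, edgeR adjusted p = 0.0772), as was that on RPL35 without Con replicate 3 (0.19) and that on RPL19 without Con replicate 2 (0.17), Con replicate 3 (0.16) or RES replicate 2 (0.19). Scaled by library totals alone, the split turned to 30 higher and 2 lower and the median to 0.15. The count of members called was 23 without FUCO-2 replicate 1 and 9 without RES replicate 2.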

How the data were processed

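Total RNA of Hep3B cells was sequenced as polyadenylated libraries. The authors used fastp for trimming, STAR for alignment to the GRCh38.p14 genome and featureCounts for gene counting, and deposited raw counts per symbol, without normalization. Their methods name GENCODE v46 and DESeq2. Strand use, the counting of reads with several matches, and which of 2 named sequencing platforms served each library are not given in the sources used here. The methods do state that all samples came from a single sequencing run. They report no evidence of a batch effect in a principal component analysis. Libraries were grouped by title. All 18 were fitted in R 4.3.3 with edgeR 4.0.16 (filterByExpr with a minimum count of 10 and total of 15, TMM, quasi-likelihood F test, Benjamini-Hochberg adjustment over 14557 genes). Members and lists were chosen with earlier results of these data known. Genes named singly were the 3 called members with the largest rise and fall in each of 5 comparisons, the stalk proteins and RPSA, the paralog pairs, the 2 highest and lowest per length, and those nearest the count minimum. Others were named after their values were seen, and 2 members are counted but not reported singly here. Lengths are GENCODE v44 canonical transcripts, and positions and promoter windows are RefSeq's. Alternatives were other scalings and filters, pseudogene counts added, a replicate block, 2-group fits, DESeq2 1.42.0 and each library left out. In a simulation of FUCO-2 against Model, 6 of 50 genes changed 1.2-fold were recovered (12%), and 34 of 50 changed 1.5-fold (68%). At 2-fold 44 of 50 were recovered (88%), and 8 unchanged genes were called. The changed genes were drawn at random from all tested genes, so these shares are not those of the members. Few calls at small differences do not show that members were unchanged. Reads carry no molecular identifiers.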

Additional observations from a re-analysis of the deposited data

Results flagged for a closer look

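The effects of the FUCO doses against Model differed from each other for several members, each tested by the contrast between the doses in edgeR's quasi-likelihood fit with Benjamini-Hochberg adjustment over all tested genes. Between 2 and 1 μM this held for RPL12 alone among the genes named singly (log2 difference 0.27, adjusted p = 0.0186). That call was lost in 4 of 29 alternatives. These were the fits without FUCO-2 replicate 2 or FUCO-1 replicate 1 and those of either tool on the 2 groups. Between 2 and 0.5 μM, a comparison added after the data had been seen, 56 of 79 members were called higher, against 8.43% of tested genes. Among the genes picked by the naming rule and reported singly, it held for RPL12 (0.55), RPLP1 (0.54), RPL26 (0.46), RPS2 (0.42), RPLP2 (0.40), RPL3 (0.37), RPL13A (0.36), RPL5 (0.34) and RPLP0 (0.22). The edgeR adjusted p ran from 7.90e-06 for RPL12 to 0.0158 for RPLP0. The 3 libraries at 2 μM lay above the 3 at 0.5 μM for each of these 9 genes, which the same libraries had called. The edgeR call was lost for RPL5 and RPLP0 without FUCO-2 replicate 2, and for RPLP0 also without FUCO-0.5 replicate 1 and in the fit of the 2 groups alone, with adjusted p of 0.0511, 0.0512, 0.0518 and 0.124.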

How the results depend on the processing

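No called ribosomal protein gene named singly changed sign in the 29 alternatives, run for these genes partly after the data had been seen, but many of their calls were lost in some of them and most counts of members called moved. Uncalled RPS27 at 2 μM against Model turned to −0.088 without FUCO-2 replicate 2 and −0.020 without FUCO-2 replicate 3. With library totals alone the medians were −0.082 for Model against Con and −0.066 for FUCO-0.5 against Model. Model against Con gave 8 calls and then 4 with library totals alone, 23 with edgeR on 2 groups, 25 with DESeq2 on 2 groups, and 4 to 13 when single libraries were left out. FUCO-0.5 against Model gave 0 and then 2 without a filter on low counts. FUCO-1 against Model gave 1 and then 2 with upper quartile factors, library totals alone or at least 10 counts in every library, 3 without a filter, 0 with pseudogene counts added, 12 with edgeR on 2 groups, 7 with DESeq2 on all libraries, 19 with DESeq2 on 2 groups, and 0 to 6 with single libraries left out. FUCO-2 against Model kept within 1.5 times of its 36 calls (31 to 50) except with single libraries left out (13 to 46). RES against Model gave 18 and then 51 with library totals alone (median 0.23 in place of 0.10), 40 with edgeR and 39 with DESeq2 on 2 groups. FUCO-2 against FUCO-1 gave 1 and then 2 with pseudogene counts added or DESeq2 on all libraries, 0 with either tool on 2 groups, and 0 to 2 with single libraries left out, with medians of −0.00043 to 0.10. RES against Con gave 15 and then 32 with library totals alone, where its median turned from −0.042 to 0.15, and 9 to 23 with single libraries left out. FUCO-1 against FUCO-0.5 gave 0 and then 24 without a filter, 21 with DESeq2 on all libraries, 7 with DESeq2 on 2 groups, and 0 to 1 with single libraries left out. FUCO-2 against FUCO-0.5 gave 56 and then 30 with edgeR on 2 groups and 32 to 67 with single libraries left out, with medians of 0.24 to 0.36. The cause of these moves was not tested, and the shares over all tested genes in the alternatives are not given here.

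The labels give replicate numbers but do not say whether equal numbers pair the samples. Deviations of same-numbered libraries from their group means correlated between −0.20 and 0.19 (median 0.024), with 7 of 45 pairs over 0.1. For libraries of different numbers the median was −0.023, with 8 of 90 pairs over 0.1. Such weak correlations cannot decide whether the samples were paired. With a replicate block 8, 0, 1, 36, 19, 1, 16, 0 and 56 members were called in the comparisons in the order above, and no call on a ribosomal protein gene named singly was lost. The alternatives were not run for named genes of the other lists. Depth limited the weakest members, which had as few as 51 counts a library.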

Other observations

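Across the 79 members, the log2 fold change with 2 μM FUCO had a Spearman correlation of 0.075 with canonical transcript length and of 0.024 with mean level, given as a description across genes, which are not independent replicates. With RES the correlations were −0.28 and −0.12. In both comparisons against Model that lowered RPS27L, its level in Con (75.9, 60.0 and 60.1 CPM) overlapped that in Model and lay with its mean of 65.3 CPM between the Model mean of 74.3 CPM and the FUCO-2 and RES means of 55.9 and 55.8 CPM.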
